A study of Mus musculus with 6 samples.

Results

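Axl, Mertk and Tyro3 are the TAM receptors, a family of receptor tyrosine kinases. They were measured here beside their soluble ligands Gas6 and Pros1 and beside Timd4 and Stab1, receptors that bind phosphatidylserine on dying cells. These 7 genes were taken by symbol from the 28208 genes listed for all 6 kidneys of a mouse transplantation study. The naive group was 2 untransplanted kidneys of male C57BL/6 (B6) mice aged 10 to 12 weeks. The rejecting group was 2 kidneys of BALB/c mice aged 6 to 7 weeks, transplanted into untreated B6 males whose own kidneys had both been removed, and retrieved on day 15. The tolerized group was 2 kidneys of the same kind and day, from recipients infused 7 days before and 1 day after transplantation with BALB/c splenocytes fixed with the carbodiimide crosslinker ECDI. Each kidney gave 1 droplet-based single-cell RNA library of its whole cell suspension, with no sorting of cells stated.

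TAM receptors are cell surface kinases that recognise apoptotic cells through a bridge. Gas6 and protein S, the product of Pros1, bind exposed phosphatidylserine at one end and the receptor at the other, and the receptor then drives engulfment of the dying cell (efferocytosis) and dampens cytokine and interferon signalling. Gas6 binds all members of the receptor family, whereas protein S acts mainly through Tyro3 and Mertk. Mertk is known as the efferocytosis receptor of resting tissue macrophages and Axl as a receptor that inflammatory signals induce. Tim-4, the product of Timd4, tethers phosphatidylserine directly without signalling of its own, and stabilin-1, the product of Stab1, is a scavenger receptor of sinusoidal endothelium and of some tissue macrophages.

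On the GRCm38 assembly Axl lies on chr7:25757273-25788705 (minus strand), Mertk on chr2:128698956-128802894 (plus), Tyro3 on chr2:119797733-119818104 (plus), Gas6 on chr8:13465374-13494490 (minus), Pros1 on chr16:62854307-62929346 (plus), Timd4 on chr11:46810800-46844332 (plus) and Stab1 on chr14:31139013-31168641 (minus). The values below are counts over whole genes and do not resolve exons or isoforms. The promoters of Axl and Mertk are shown because both receptors were read in macrophage-like cells, Axl at much the same level in every group and Mertk at different ones. Each is the 250 bases before the RefSeq transcript start on GRCm38.p6, chr7:25788734-25788983 (minus strand) for Axl and chr2:128698665-128698914 (plus strand) for Mertk. Capitals mark GAGGAAG, a core bound by PU.1 and other ETS factors, or GGGCGG, the GC box, each on either strand:
Axl: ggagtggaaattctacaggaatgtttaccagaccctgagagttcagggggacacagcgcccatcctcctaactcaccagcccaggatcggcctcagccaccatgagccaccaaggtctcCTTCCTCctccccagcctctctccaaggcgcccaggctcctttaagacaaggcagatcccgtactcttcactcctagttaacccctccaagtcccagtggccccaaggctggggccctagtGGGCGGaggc
Mertk: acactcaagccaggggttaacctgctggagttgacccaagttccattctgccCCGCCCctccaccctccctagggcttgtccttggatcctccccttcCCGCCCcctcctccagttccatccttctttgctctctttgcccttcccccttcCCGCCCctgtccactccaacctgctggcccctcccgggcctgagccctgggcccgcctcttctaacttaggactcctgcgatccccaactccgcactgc

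All 7 genes had a RefSeq promoter. GAGGAAG was found once, in Axl, and is held by 10.6% of 32851 mouse promoters of this length. The GC box had 1 match in Axl, 3 in Mertk, 3 in Tyro3, 4 in Gas6, 5 in Pros1 and 0 in Timd4 and Stab1, against 32.7% of all promoters with at least 1. These are matches of letters in a window and no binding was measured.

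The libraries held 8532 to 13378 barcodes and 34874702 to 96803926 unique molecular identifiers (UMIs, each counting 1 captured transcript), and 49797 cells passed the filters. Naive and transplanted kidneys differed in strain and age, in the number of genes listed (28692 and 31053) and in the lowest UMI count of a kept cell (1538 and 1342 against 500 to 502), and the effect of transplantation cannot be told apart from these. Mitochondrial UMIs took a median 25.5% and 24.9% of a cell in naive kidneys and 5.38% to 13.7% in the transplanted ones. The naive pair shared 111 cell barcodes, transplanted pairs 18 to 35, and naive with transplanted kidneys 0 to 4. Cells were clustered without the 7 genes and named from marker genes, as "X-like" classes. Distal convoluted tubule-like, most proximal tubule-like and loop of Henle-like cells of naive and transplanted kidneys fell into nearly separate clusters, while cluster 29 of the proximal tubule and clusters 13 and 30 of the collecting duct held both. Macrophage-like cells of transplanted kidneys lay mostly in cluster 1, led by Ccl8 and C1q genes, and cluster 18, led by Ccl8 and Mrc1, and those of naive kidneys in cluster 40, led by Mmp12 and Mmp13. These counts do not separate myeloid cells of donor and of recipient origin in an allograft. For grafts of the same day, the paper reports by flow cytometry that myeloid cells were almost all recipient-derived, in rejecting and tolerized recipients alike. Recipients were B6, the strain of the naive kidneys. The origin of the myeloid-like cells sequenced here was not tested. Throughout, the level is raw CPM, the UMIs of a gene per 1000000 UMIs of that class in that kidney. Levels of different genes were not compared with each other. A lower level in a class can reflect fewer expressing cells or less RNA per cell, which a sum over cells cannot separate.

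Axl transcripts were concentrated in macrophage-like cells of every kidney, and their level there was much the same in naive, rejecting and tolerized kidneys. In macrophage-like cells Axl was at 165 and 230 raw CPM in the naive kidneys (14 and 67 UMIs, in 35 and 96 cells), 244 and 192 in the rejecting and 252 and 241 in the tolerized kidneys. The 3 groups overlapped. The mean of 221 ± 34.6 (SD, n = 6 kidneys) lay apart, among classes with at least 20 cells in 4 kidneys or more, from the next, stroma-like cells at 72.8 (n = 4), while stroma-like, monocyte-like (43.3) and conventional dendritic cell-like cells (28.2) overlapped in that order. Cycling macrophage-like cells, numerous enough only in the rejecting pair, had 234 and 169 raw CPM of Axl, within the range of the macrophage-like class.

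Axl was also read in monocyte-like cells, at 40.2 and 21.4 raw CPM in the naive pair, 62.6 and 45.2 in the rejecting pair and 44.8 and 45.8 in the tolerized pair. Within that class Axl was split between clusters in transplanted kidneys. In cluster 12, led by Chil3, Ms4a4c and Plac8, it was at 47.9 and 10.8 in the naive pair, 82.7 and 56.9 in the rejecting pair and 65.2 and 77.0 raw CPM in the tolerized pair. In cluster 17, led by Ear2, Adgre4 and Treml4, transplanted kidneys had 6.36 to 10.2 raw CPM of Axl, all below every transplanted kidney's value in cluster 12. Conventional dendritic cell-like cells had 29.5 and 24.1 in the rejecting pair against 47.2 and 11.9 in the tolerized pair, which overlap. B cell-like cells, which served as a background class, had 0 to 7.10 raw CPM, and endothelium-like and proximal tubule-like cells 0 to 3.48.

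Mertk was read at higher levels in macrophage-like cells of transplanted than of naive kidneys. In macrophage-like cells Mertk was at 11.8 and 6.88 raw CPM in the naive pair (1 and 2 UMIs), 85.0 and 62.2 in the rejecting pair and 72.5 and 54.8 in the tolerized pair. All 4 transplanted kidneys lay above both naive ones, and rejecting and tolerized kidneys overlapped. The share of all genes that lie above both naive kidneys in this class was not counted, so this order is a description only. Mertk was also read outside myeloid-like cells. In endothelium-like cells it was at 20.7 and 23.2 in the naive pair, 18.6 and 19.9 in the rejecting pair and 44.4 and 30.6 in the tolerized pair, so that both tolerized kidneys were above the other 4 (both were above both rejecting kidneys for 16.4% of all genes tested). Proximal tubule-like cells had 8.38 to 19.1 raw CPM of Mertk and distal convoluted tubule-like cells 9.48 to 17.3 over the 6 kidneys. Monocyte-like cells had at most 2.56 raw CPM. The order of the class means, macrophage-like 48.9 ± 32.3, endothelium-like 26.2 ± 9.87, stroma-like 18.7, proximal tubule-like 14.5 and distal convoluted tubule-like 13.8, had ranges that overlapped between all neighbours. It covers classes with at least 20 cells in 4 kidneys or more, and cycling macrophage-like cells of the rejecting pair had 54.7 and 25.9 raw CPM of Mertk.

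Tyro3, the member of the receptor family best known from the nervous system, was not detected in macrophage-like cells. No UMI of Tyro3 was counted in 4140 macrophage-like cells holding 39992248 UMIs, which allows up to 0.0750 raw CPM and up to 0.0725% of cells with a UMI. Monocyte-like, conventional dendritic cell-like, endothelium-like and B cell-like cells also had 0 UMIs. Over all named cells Tyro3 had 8 and 7 UMIs in the naive, 28 and 16 in the rejecting and 40 and 35 in the tolerized kidneys. Over the 6 kidneys 39 of these UMIs lay in T cell-like, 27 in collecting duct-like, 21 in distal convoluted tubule-like, 20 in loop of Henle-like and 20 in proximal tubule-like cells. These counts were too few for any test between groups.

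**Figure D1:**
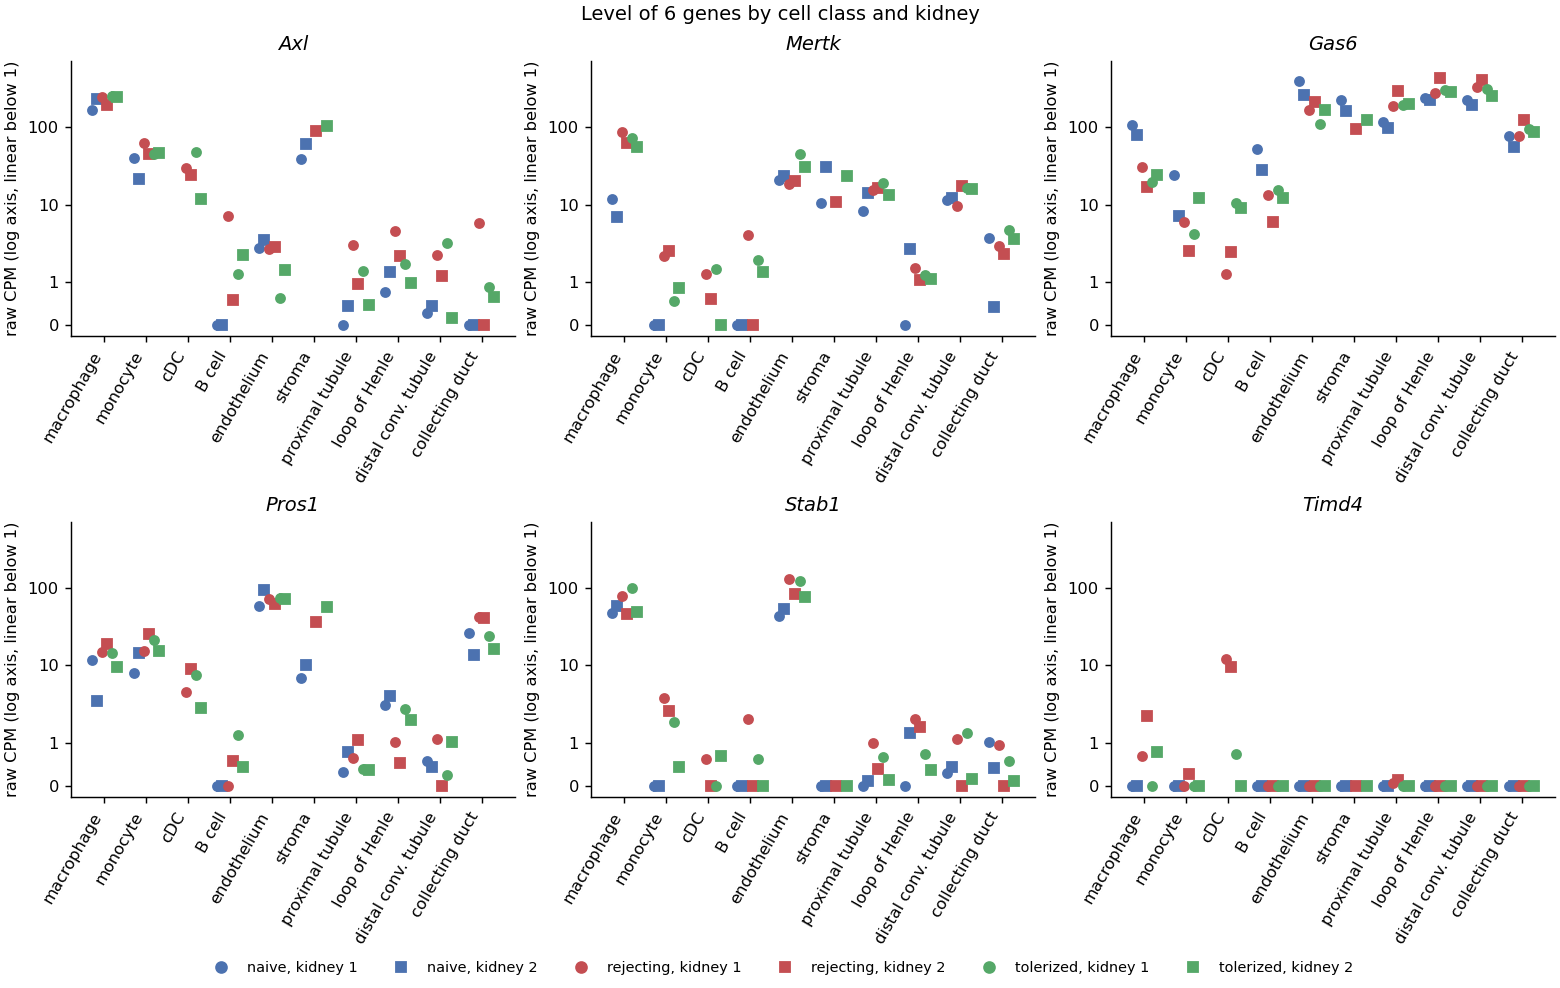
Level of 6 genes (y axis, raw CPM, UMIs per 1000000 UMIs of a class in 1 kidney, on a log axis that is linear below 1) across 10 cell classes (x axis), 1 point per kidney with at least 20 cells of the class, coloured by group. Axl is highest in macrophage-like cells of all 6 kidneys, Gas6 is highest in tubule-like and endothelium-like cells, and Timd4 is at or near 0 in all but conventional dendritic cell-like (cDC) and macrophage-like cells.

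Gas6, the ligand that binds all the receptors of the family, was read mainly in tubule-like and endothelium-like cells. In loop of Henle-like cells Gas6 was at 233 and 218 raw CPM in the naive pair, 271 and 421 in the rejecting pair and 296 and 277 in the tolerized pair, and in distal convoluted tubule-like cells at 221 and 193, 321 and 399, and 306 and 250. In both classes the naive kidneys were the lowest in raw CPM, whose total includes mitochondrial UMIs. In loop of Henle-like cells these took a median 36.8% and 38.5% in naive and 24.0% to 29.8% in transplanted kidneys. In distal convoluted tubule-like cells they took 38.4% and 40.6% against 22.1% to 29.3%. The part of this in the order of the kidneys was not tested. Both rejecting kidneys lay above both naive ones for 35.8% and 42.9% of all genes tested in these classes, and both tolerized kidneys for 33.9% and 41.1%. In proximal tubule-like cells it was at 115 and 96.6 in the naive pair, 183 and 286 in the rejecting pair and 190 and 195 in the tolerized pair, again with both naive kidneys lowest, an order against naive kidneys seen for 59.9% of all genes tested in rejecting and 50.4% in tolerized kidneys. Endothelium-like cells ran the other way, with 387 and 257 in the naive pair, 162 and 207 in the rejecting pair and 109 and 162 raw CPM in the tolerized pair. The share of all genes that lie below both naive kidneys in endothelium-like cells was not counted, so this order is a description only.

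Gas6 in macrophage-like cells was at 106 and 79.1 raw CPM in the naive pair (9 and 23 UMIs), 30.7 and 16.7 in the rejecting pair and 19.6 and 24.1 in the tolerized pair. B cell-like cells showed the same order of groups for Gas6, with 51.4 and 27.8 in naive kidneys (3 and 4 UMIs) and 5.88 to 15.4 in transplanted kidneys. The summed level of the 12 proximal tubule markers in macrophage-like cells was 3220 and 4393 raw CPM in naive and 197 to 867 in transplanted kidneys, with no marker at 0 in the naive kidneys. Its part in the Gas6 values was not tested. In conventional dendritic cell-like cells Gas6 was at 1.28 and 2.41 raw CPM in rejecting kidneys (2 and 4 UMIs) and 10.5 and 9.10 in tolerized kidneys (14 and 13 UMIs), with both tolerized kidneys above both rejecting ones, as for 10.3% of all genes tested in that class. These values lay within or below the 5.88 to 15.4 raw CPM of B cell-like cells of transplanted kidneys. Over all named cells Gas6 had 4497 and 4095 UMIs in the rejecting and 10018 and 11948 in the tolerized kidneys. The part of RNA from other cells in the conventional dendritic cell-like values was not tested. Among the classes the order of Gas6 was 286 ± 72 in loop of Henle-like, 281 ± 75.5 in distal convoluted tubule-like, 214 ± 98.2 in endothelium-like and 178 ± 67.3 raw CPM in proximal tubule-like cells (SD, n = 6 each), and these neighbours overlapped.

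Pros1, which encodes protein S and is also an anticoagulant cofactor, was highest, among whole classes, in endothelium-like cells and nearly level across the groups there. Pros1 was at 57.8 and 93.9 raw CPM in the naive pair, 71.8 and 62.4 in the rejecting pair and 73.1 and 71.8 in the tolerized pair (endothelium-like cells), and the naive kidneys spanned the other 4. The mean of 71.8 ± 12.4 (SD, n = 6) lay apart from the next class. In collecting duct-like cells the level of Pros1 depended on the cluster. Cluster 30, led by Atp6v1g3, a proton pump subunit of intercalated cells, had 83.6 and 78.2 in the naive pair, 80.5 and 102 in the rejecting pair and 76.0 and 66.1 in the tolerized pair. Cluster 13, led by Aqp2, the water channel of principal cells, had 4.23 to 12.1 raw CPM of Pros1. In every kidney the value in cluster 30 was above that in cluster 13. Monocyte-like cells had 8.04 to 25 raw CPM of Pros1 over the 6 kidneys and macrophage-like cells 3.44 to 19.1, and both ranges overlapped between groups.

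Stab1 was read in endothelium-like and macrophage-like cells and almost nowhere else. In endothelium-like cells Stab1 was at 42.7 and 53.3 raw CPM in the naive pair, 128 and 82.3 in the rejecting pair and 121 and 76.8 in the tolerized pair, with all transplanted above both naive kidneys. Of all genes tested there, 31.7% were above both naive kidneys in both rejecting and 32.0% in both tolerized kidneys. In macrophage-like cells it was at 47.0 and 58.5 in the naive pair (4 and 17 UMIs), 79.2 and 46.3 in the rejecting pair and 99.1 and 48.7 in the tolerized pair, which overlapped between groups. The class means of 84.0 ± 34.6 and 63.1 ± 21.6 overlapped with each other, and the macrophage-like values lay apart from those of every lower class with at least 20 cells in 4 kidneys or more. Cycling macrophage-like cells of the rejecting pair had 22.7 and 47.6 raw CPM of Stab1, which overlap with the macrophage-like range.

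Timd4 was rare and had its highest levels in conventional dendritic cell-like cells of rejecting kidneys. Over the 6 kidneys 36 UMIs of Timd4 lay in conventional dendritic cell-like and 35 in macrophage-like cells. In that class Timd4 had 19 UMIs in 4 of 198 cells and 16 UMIs in 8 of 225 cells of the rejecting kidneys, 1 UMI in 137 cells of tolerized replicate 1 and 0 in 132 cells of tolerized replicate 2. The levels were 12.2 and 9.66 raw CPM in the rejecting pair against 0.749 and 0 in the tolerized pair. The share of all genes with both rejecting kidneys above both tolerized ones in this class was not counted, so this order is a description only. Summed over kidneys, Timd4 was at 10.9 raw CPM (35 UMIs, 95% Poisson interval 7.58 to 15.1) against 0.362 (1 UMI, 0.00916 to 2.02). The ratio was 30.1, with an exact interval of 5.06 to 1222 that covers counting error only. Of the 12 Timd4-positive cells of the rejecting kidneys, 7 also had a UMI of Ccr7, a marker of migrating dendritic cells. Among other dendritic cell markers, Fscn1 was read in 1 and 3 Timd4-positive cells of rejecting replicates 1 and 2, Xcr1 in 2 and 0, and Cd209a in 1 and 0. These markers were looked at after the Timd4 values were seen. Ccr7 itself was read in 60 of 198 and 60 of 225 conventional dendritic cell-like cells of rejecting kidneys. It was read in 3 of 137 of tolerized replicate 1 and in 41 of 132 of tolerized replicate 2. For Ccr7, tolerized replicate 1 thus stood apart as the lowest and tolerized replicate 2 did not. Fscn1 was read in 43 of 198 and 60 of 225 cells of the rejecting kidneys. In the tolerized kidneys it was read in 60 of 137 and 39 of 132, with tolerized replicate 1 the highest. Macrophage-like cells had 0 and 0 UMIs of Timd4 in the naive pair, 7 and 25 in the rejecting pair and 0 and 3 in the tolerized pair. A level this low, carried by so few cells, moves with any single cell.

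Axl and Mertk were set beside each other within macrophage-like cells after each cell had been thinned to 2000 UMIs, with shallower cells left out. This was done because cells of tolerized kidneys were read more deeply (median 15350 and 13116 UMIs before thinning, over the cells used) than those of rejecting (9599 and 8898) and naive kidneys (2466.5 and 2972). Of macrophage-like cells so thinned, 36.4% and 34.4% in the naive pair (22 and 90 cells used), 37.3% and 32.2% in the rejecting pair (1036 and 1221 cells) and 35.8% and 37.3% in the tolerized pair (951 and 279 cells) had a UMI of Axl. These shares overlapped between all groups. Without thinning they were 37.1% and 46.9%, 64.3% and 68.5%, and 79.8% and 77.3% of all macrophage-like cells. This order followed the median depth of all these cells (2102 and 2828, 8103 and 8632, and 14652 and 11866 UMIs). With a UMI of Mertk the thinned shares were 0 of 22 and 0 of 90 naive cells, which allows up to 13.6% and 3.33%, 16.8% and 11.3% in the rejecting pair and 12.8% and 9.68% in the tolerized pair. Thinned to 1000 UMIs, 1 of 35 and 1 of 96 naive cells had a UMI of Mertk (2.86% and 1.04%), against 4.58% to 10.0% in the transplanted kidneys. Without thinning Mertk was at 2.86% and 2.08%, 37.7% and 35.1%, and 47.1% and 32.9%. Both Axl and Mertk were read in 6.66% and 4.26% of thinned rejecting and 5.78% and 3.23% of thinned tolerized macrophage-like cells, and in 0 of the naive ones. Over all myeloid-like cells the mean thinned share in tolerized minus rejecting kidneys was −2.26 percentage points for Axl, −2.43 for Mertk and −0.80 for both, and with 2 kidneys in each group no exact test could be informative. At 1000 UMIs the difference was −0.42 for Axl and 0.12 for both, so that the latter changed sign, and that for Mertk was again negative. Without thinning the double shares in macrophage-like cells were 30.6% and 27.5% in the rejecting pair against 42.5% and 29.8% in the tolerized pair.

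In B cell-like cells thinned to the same number of UMIs, Axl was read in 0% to 2.26% and Mertk in 0% to 0.531% of cells (median depth of the cells used, before thinning, 2264.5 to 4711 UMIs). Monocyte-like cells had Axl shares of 5.41% and 5.56% in the naive pair, 8.93% and 5.39% in the rejecting pair and 5.57% and 6.55% in the tolerized pair, above the share in B cell-like cells of every kidney. Their Mertk shares, 0% to 0.727%, were close to those in B cell-like cells and are not read as expression.

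**Figure D2:**
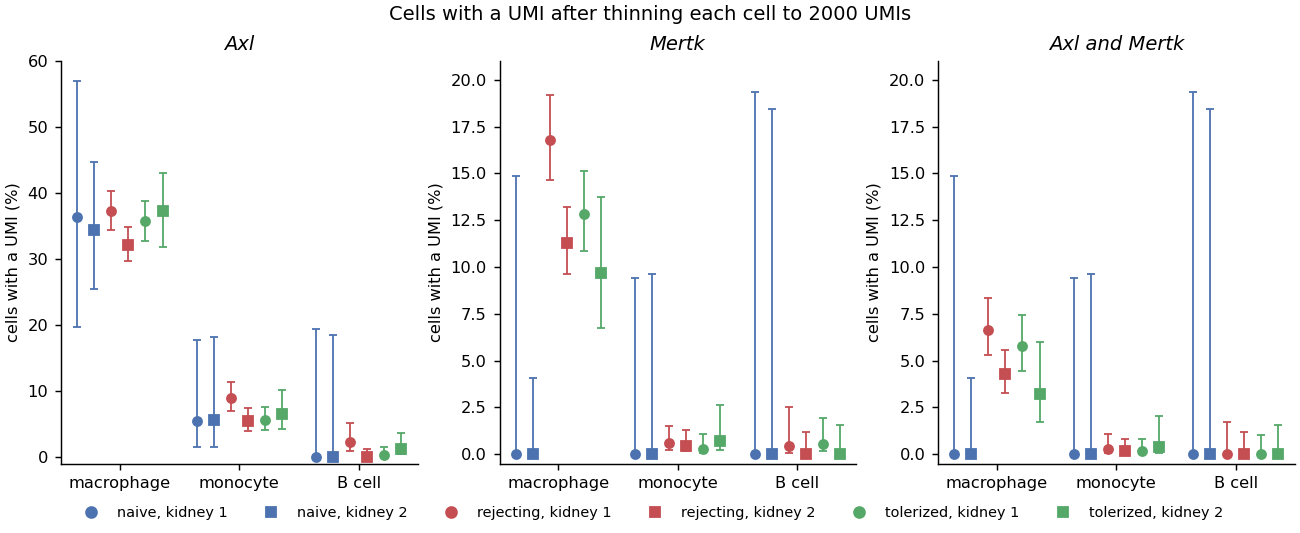
Percent of cells with at least 1 UMI of Axl, of Mertk or of both, per kidney, after thinning each cell to 2000 UMIs, in macrophage-like, monocyte-like and B cell-like cells. Bars are 95% Wilson intervals and cover counting error only. In macrophage-like cells Axl lies between 32.2% and 37.3% in all 6 kidneys, whereas Mertk is at 0 in the naive (0 of 22 and 0 of 90 cells) and at 9.68% to 16.8% in the transplanted kidneys.

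For Mertk, Pros1 and Stab1 the classes that held most transcripts differed between naive and rejecting kidneys, and so did the cell numbers of the classes. The part of cell number in these shares was not tested. Myeloid-like cells were here the macrophage-like, cycling macrophage-like, monocyte-like and conventional dendritic cell-like cells, whereas the other myeloid-like values and tests leave the cycling ones out. They made up 1.30% and 2.67% of named cells in the naive pair, 22.2% and 31.5% in the rejecting pair and 21.4% and 12.1% in the tolerized pair. They held 55.9% and 75.8% of all Axl UMIs in naive kidneys, with 32.4% and 12.1% in stroma-like cells, and 90.5% to 96.7% in transplanted kidneys. For Mertk they held 0.410% and 0.725% in the naive pair, 75.9% and 81.4% in the rejecting pair and 55.5% and 23.8% in the tolerized pair, while proximal tubule-like cells held 71.7% and 79.0%, 19.5% and 13%, and 36.1% and 55%. Most Mertk UMIs were thus in proximal tubule-like cells in naive kidneys and in tolerized replicate 2.

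Gas6 showed no such shift. Proximal tubule-like cells held 50.8% to 67.8% of Gas6 UMIs in the 6 kidneys and distal nephron-like cells 26.3% to 40.5%, and the myeloid-like share was 0.346% to 7.65%. For Pros1 the myeloid-like share was 2.21% and 2.24% in the naive pair, 65.3% and 72.3% in the rejecting pair and 57.5% and 21.7% in the tolerized pair. For Stab1 it was 10.3% and 26.1%, 86.5% and 93.2%, and 85.9% and 61.5%, with endothelium-like cells holding 79.5% and 66.7% in naive kidneys. The myeloid-like share of Axl was thus above 50% in every kidney, and that of Gas6 below 10% in every kidney. These shares are given without a test.

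**Figure D3:**
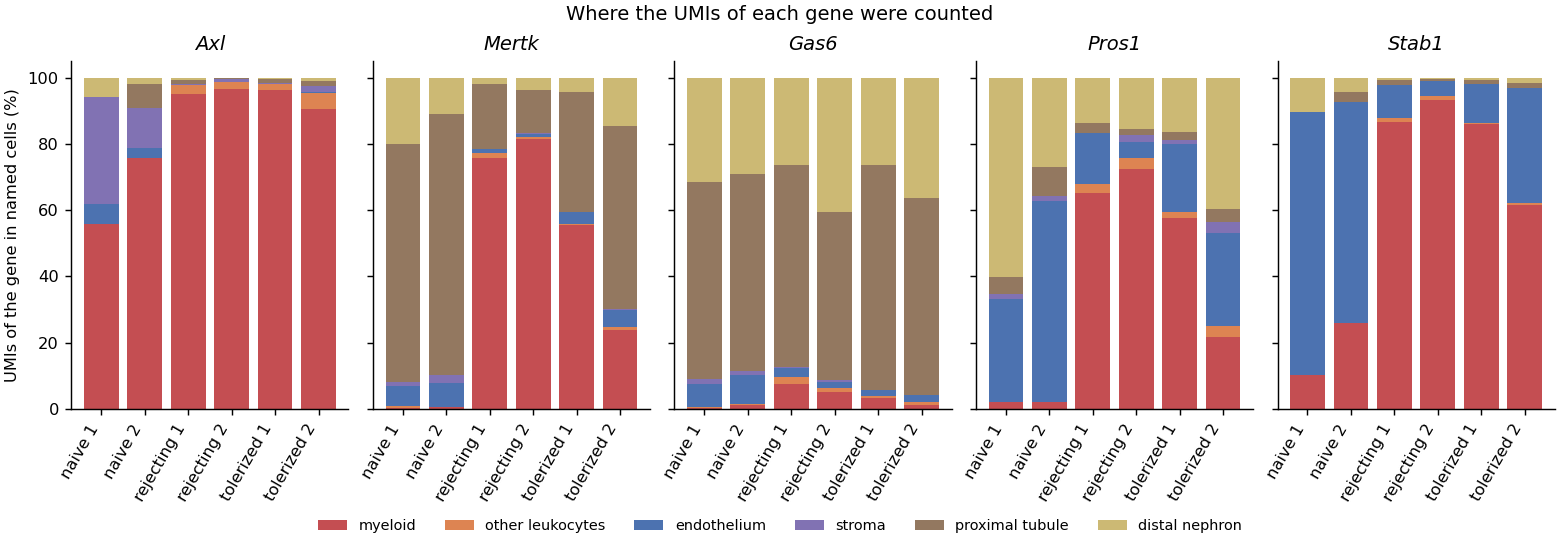
Share of the UMIs of each gene (percent of its UMIs in named cells, y axis) held by each cell compartment, 1 stacked bar per kidney. Axl lies mostly in myeloid cells in all 6 kidneys, Gas6 mostly in tubule cells, and Mertk, Pros1 and Stab1 move from mostly tubule or endothelial cells in naive kidneys to mostly myeloid cells in rejecting ones.

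Macrophage-like cells were then set against endothelium-like and proximal tubule-like cells of the same kidney, to ask which members were higher in the phagocyte than in the parenchyma. On log2(raw CPM + 1), Axl was higher in macrophage-like cells by 6.13 (SD 0.70) than in endothelium-like and by 6.89 (SD 0.57) than in proximal tubule-like cells, in 6 of 6 kidneys each. Gas6 was lower by 2.43 and 2.19 in 6 of 6 kidneys. Pros1 was lower by 2.59 than in endothelium-like cells and higher by 2.92 than in proximal tubule-like cells, and Stab1 was higher by 5.51 than in proximal tubule-like cells, each in 6 of 6 kidneys. Each of these had p = 0.03125 (2-sided exact sign-flip permutation test), the smallest that 6 pairs allow, and 0.0625 after Benjamini-Hochberg adjustment over 14 such tests, so none passed 0.05. Mertk was higher in macrophage-like cells by 0.48 than in endothelium-like cells (exact permutation p = 0.469) and by 1.26 than in proximal tubule-like cells (p = 0.0938). Stab1 differed by −0.36 from endothelium-like cells (exact permutation p = 0.125).

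Tolerized and rejecting kidneys were compared in 9 classes by edgeR's quasi-likelihood test on the summed UMIs of each class per kidney, adjusted over all genes tested in that class (Benjamini-Hochberg). No TAM receptor, ligand or partner tested passed an FDR of 0.05 in any class, in 32 tests. Tyro3 fell under the low-count filter and was not tested in any class. The share of all genes called was 0% in myeloid-like, macrophage-like, monocyte-like, conventional dendritic cell-like, endothelium-like and proximal tubule-like cells, 0.578% in loop of Henle-like and 0.0390% in distal convoluted tubule-like cells. In the collecting duct it was 0.00912%. At an unadjusted p under 0.05 edgeR listed 5 of the 32 tests of these genes, and 7.38% of the 93362 gene and class tests made over all genes. By DESeq2, 64 genes passed 0.05 in myeloid-like, 31 in macrophage-like, 35 in monocyte-like, 31 in conventional dendritic cell-like, 10 in endothelium-like and 202 in proximal tubule-like cells, and none of these were among the 7. With 2 kidneys in each group the p-values measure the spread between these kidneys only, and an exact permutation test of 2 against 2 cannot go below 0.33. In data simulated on the macrophage-like counts, the test recovered 20% of genes changed by 2-fold and 89.9% of those changed by 4-fold. The simulation gave every gene the same spread between kidneys (negative binomial dispersion 0.05) and changed only genes with at least 20 UMIs. That spread was set and not estimated from these kidneys, so the recovery in the real data can differ.

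In macrophage-like cells the fitted change of Axl in tolerized against rejecting kidneys was 0.25 (log2, SE 0.19, 95% interval −0.19 to 0.70, edgeR FDR 0.926). Mertk had −0.13 (SE 0.22, interval −0.65 to 0.39, FDR 0.969). Gas6 had −0.06 (interval −0.80 to 0.69), Pros1 −0.40 (interval −0.98 to 0.18) and Stab1 0.32 (interval −0.52 to 1.16). The signs for Mertk, Gas6 and Stab1 changed when single kidneys were left out, with values from −0.35 to 0.13, −0.45 to 0.46 and −0.25 to 0.78. Axl kept its sign, from 0.08 to 0.45.

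Among the other classes, the 5 tests with an unadjusted p under 0.05 were of Timd4 and Gas6 in conventional dendritic cell-like cells, Timd4 in myeloid-like cells, Mertk in endothelium-like cells and Pros1 in collecting duct-like cells. Timd4 in conventional dendritic cell-like cells had a log2 change of −4.52 (SE 0.88, interval −6.54 to −2.50, edgeR FDR 0.178). Gas6 in these cells had 2.46 (SE 0.58, interval 1.13 to 3.79, FDR 0.262). Mertk in endothelium-like cells had 0.99 (SE 0.36, interval 0.19 to 1.78, FDR 0.645), and Pros1 in collecting duct-like cells −1.0 (SE 0.29, FDR 0.330). Timd4 in myeloid-like cells had −3.61 (SE 0.89, FDR 0.666). None of these passed the adjustment. Within the collecting duct, Pros1 had −0.37 in cluster 30 and −1.01 in cluster 13.

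For Timd4 the call depended on the setting. With the replicate number as a block the edgeR FDR in conventional dendritic cell-like cells was 0.0079, and without tolerized replicate 1, the only tolerized kidney with a UMI of Timd4 in this class, the value was −7.04 with an FDR of 0.0380. No UMI was then left in the tolerized group, so that this fitted value depends on the prior count. Over all alternatives the adjusted p of this result ran from 0.0079 to 0.851.

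**Figure D4:**
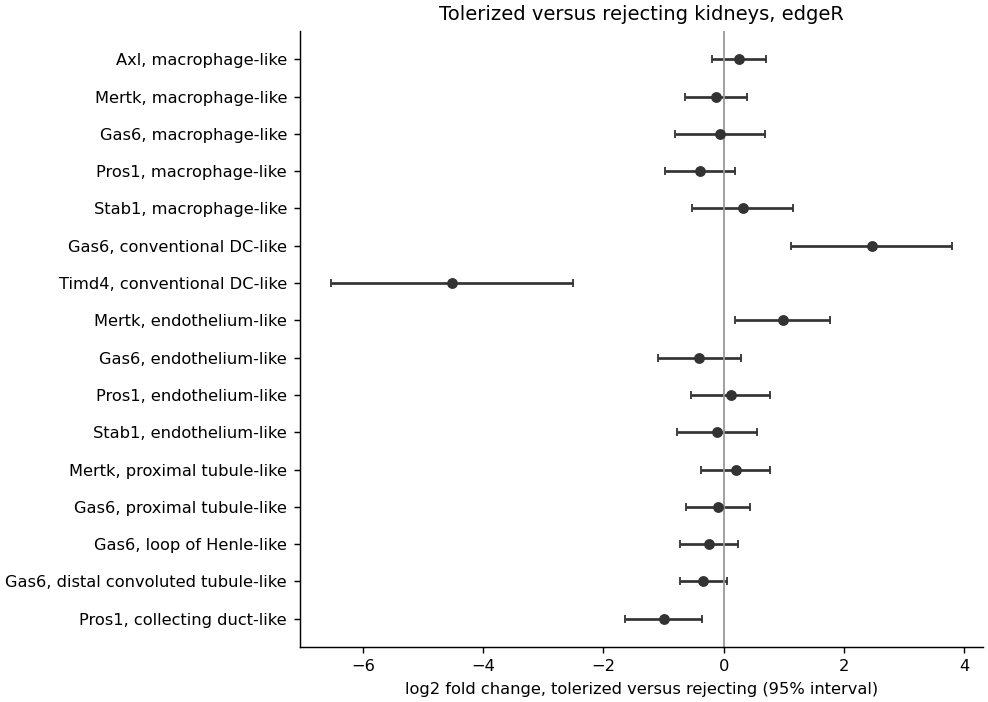
Fitted log2 fold change of tolerized against rejecting kidneys (x axis, 0 means no difference) for 16 gene and class pairs (y axis) out of the 32 tested, those of the classes in which a gene is described in the text, with 95% intervals from edgeR. All points have an FDR above 0.05, and Timd4 and Gas6 in conventional dendritic cell-like cells lie farthest from 0, at −4.52 and 2.46.

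Against the naive kidneys, Mertk rose and Gas6 fell in myeloid-like cells of both transplanted groups, and Axl did not pass the test in either. Myeloid-like cells were used because naive kidneys held few macrophage-like cells. Of the 6 genes tested, 1 was higher and 1 lower in rejecting kidneys, where 13.5% of all genes were called, and 1 was higher and 1 lower in tolerized kidneys, where 7.29% were called. Both comparisons use the same 2 naive kidneys. Mertk was at 4.18 and 4.55 raw CPM in the naive pair, 54.9 and 43.3 in the rejecting pair and 49.9 and 27.9 in the tolerized pair (myeloid-like cells), a log2 change of 3.45 (SE 0.65, edgeR FDR 0.0104) in rejecting and 3.16 (SE 0.66, FDR 0.0270) in tolerized kidneys. The naive level rests on 3 UMIs, 4.42 raw CPM with a Poisson interval of 0.912 to 12.9, and the pooled ratio of 11.1 for rejecting kidneys has an exact counting interval of 3.79 to 53.8. For tolerized kidneys the ratio was 9.97 (3.40 to 48.4).

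Gas6 in myeloid-like cells was at 58.5 and 59.2 raw CPM in the naive pair (14 and 26 UMIs), 21.3 and 12.2 in the rejecting pair and 15.1 and 17.6 in the tolerized pair, a log2 change of −1.83 (SE 0.38, edgeR FDR 0.0146) and −1.82 (SE 0.38, FDR 0.0264). The proximal tubule markers given above for macrophage-like cells moved the same way, and their part in this change was not tested. Axl was at 79.5 and 164 raw CPM in the naive pair, 175 and 144 in the rejecting pair and 187 and 138 in the tolerized pair (myeloid-like cells), with a log2 change of 0.30 (SE 0.34, interval −0.47 to 1.06, FDR 0.593) and 0.37 (SE 0.34, FDR 0.532). The median log2 change over all genes tested was 0.18 in both comparisons. Leaving out either naive kidney ended the calls of Mertk (log2 3.36 and 3.68 in rejecting, 3.08 and 3.39 in tolerized kidneys) and of Gas6 (−1.88 and −1.68 in each).

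In endothelium-like cells Stab1 rose in rejecting kidneys and Gas6 fell in tolerized kidneys against naive ones. Of 4 genes tested, 1 was higher in rejecting kidneys (16.2% of all genes called) and 1 lower in tolerized kidneys (13.1% called). The log2 change of Stab1 was 1.11 (SE 0.33, edgeR FDR 0.0426) in rejecting and 1.01 (SE 0.31, FDR 0.0583) in tolerized kidneys. That of Gas6 was −0.86 (SE 0.31, FDR 0.0855) and −1.26 (SE 0.30, FDR 0.0225). Naive endothelium-like cells lay in cluster 19, which all groups shared, and in cluster 31, led by Plat, Ehd3 and Pi16, with 163 and 140 cells in naive kidneys and 5 in the transplanted ones. Within cluster 19 Stab1 was at 31.5 and 31.5 raw CPM in the naive pair, 128 and 82.3 in the rejecting pair and 121 and 76.8 in the tolerized pair, and its change was 1.72 (edgeR FDR 0.0133) and 1.62 (FDR 0.0155), where 14.6% and 13.7% of all genes were called. Gas6 in cluster 19 had −0.67 (FDR 0.157) and −1.08 (FDR 0.0345). The whole-class calls were lost in DESeq2 for Stab1 in rejecting kidneys (adjusted p = 0.0980), and without either naive kidney or without rejecting replicate 1 (log2 0.93, 1.28 and 0.73). With the replicate number as a block Stab1 had 1.06 (edgeR FDR 0.0509). For Gas6 in tolerized kidneys the call was lost without either naive kidney or without tolerized replicate 1 (−0.98, −1.53 and −0.96).

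Gas6 passed the test as higher in rejecting than in naive kidneys in proximal and distal convoluted tubule-like cells, and both calls depended on single kidneys. It did not pass in loop of Henle-like or collecting duct-like cells. In proximal tubule-like cells 1 of 5 genes tested was called in rejecting kidneys, Gas6, with a log2 change of 0.70 (SE 0.23, edgeR FDR 0.0408), where 41.7% of all genes were called. In tolerized kidneys, where 31.9% were called, none of the 5 passed, and Gas6 had 0.61 (SE 0.23, FDR 0.0772). In distal convoluted tubule-like cells Gas6 had 0.59 (SE 0.18, FDR 0.0364) in rejecting and 0.26 (FDR 0.362) in tolerized kidneys, with 23.0% and 16.2% of all genes called and 1 and 0 of the 2 genes tested. Gas6 was the only gene of the 7 tested in loop of Henle-like cells, with 0.50 in rejecting kidneys (FDR 0.158), where 17.7% of all genes were called (11.5% in tolerized kidneys). Without rejecting replicate 2 the changes in proximal and distal convoluted tubule-like cells were 0.34 and 0.44 and neither passed. Both calls were also lost without either naive kidney (0.55 to 0.84 and 0.49 to 0.68) and without tolerized replicate 2 (0.69 and 0.58), and that in distal convoluted tubule-like cells without tolerized replicate 1 (0.59). With the replicate number as a block the FDR of Gas6 by edgeR was 0.0555 in proximal and 0.0523 in distal convoluted tubule-like cells.

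In collecting duct-like cells 1 of 2 genes tested was called in rejecting kidneys (20.2% of all genes called) and 0 in tolerized kidneys (17.2%). It was Pros1, at 25.9 and 13.5 raw CPM in the naive pair, 42.5 and 40.9 in the rejecting pair and 24.2 and 16.1 in the tolerized pair, with a log2 change of 0.99 in rejecting kidneys (SE 0.31, edgeR FDR 0.0414). The call was lost by DESeq2 (1.0, adjusted p = 0.0819), without naive replicate 2 (0.59) and without either rejecting kidney (0.99 and 0.98), and the change was 1.54 without naive replicate 1 and 2.28 with at most 20% mitochondrial UMIs. Within cluster 30 the change of Pros1 was 0.02, and within cluster 13 it was 1.30 (FDR 0.0846). Cluster 30 made up 101 of 473 and 35 of 403 collecting duct-like cells in naive and 46 of 93 and 37 of 111 in rejecting kidneys, so the mixture of the clusters moved with the whole-class value. Gas6 in the whole class had 0.55 (FDR 0.140).

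**Figure D5:**
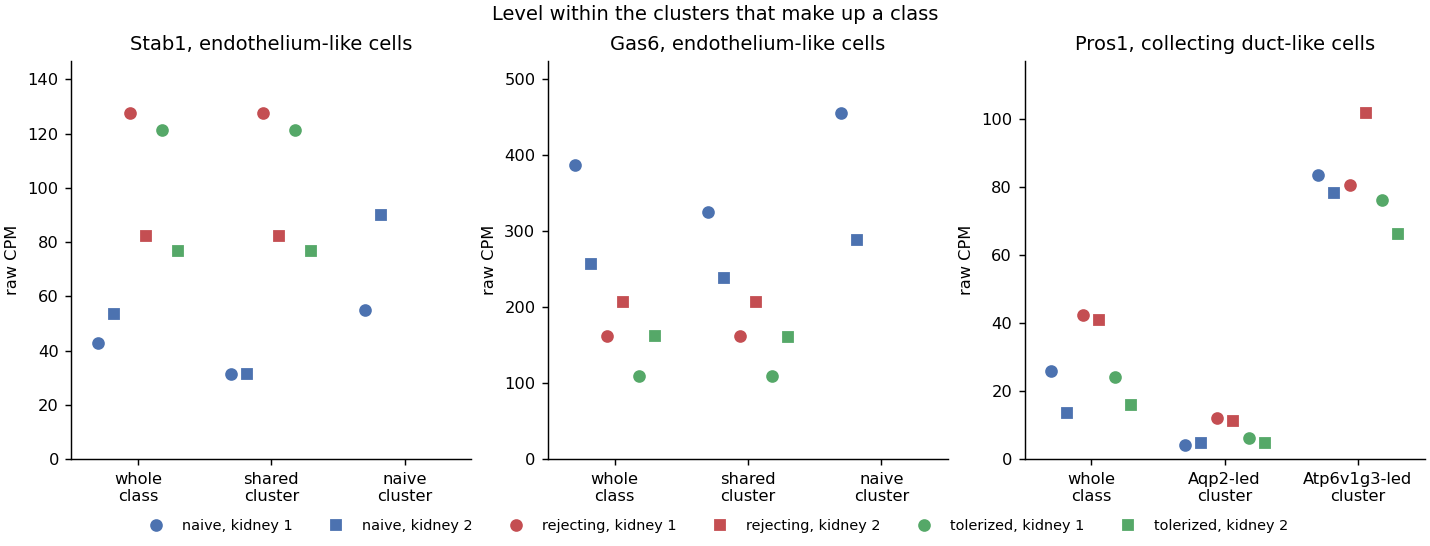
Level (y axis, raw CPM) of Stab1 and Gas6 in endothelium-like cells and of Pros1 in collecting duct-like cells, for the whole class and for its clusters (x axis), 1 point per kidney, coloured by group. In the shared endothelium-like cluster both naive kidneys lie at 31.5 raw CPM of Stab1, below the other 4, and Pros1 is higher in the Atp6v1g3-led than in the Aqp2-led cluster in all 6 kidneys.

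Beyond the 7 genes, 71 genes of efferocytosis were followed as a list: bridging molecules and opsonins, other phagocytic receptors, receptor shedding, phosphatidylserine exposure, find-me and do-not-eat-me signals, engulfment, corpse digestion, vitamin K-dependent carboxylation and interferon feedback. Between tolerized and rejecting kidneys 0 of 65 tested passed in myeloid-like, 0 of 64 in macrophage-like, 0 of 62 in monocyte-like, 0 of 48 in conventional dendritic cell-like, 0 of 48 in endothelium-like and 0 of 60 in proximal tubule-like cells by edgeR, with 4, 4, 6, 0, 9 and 15 at an unadjusted p under 0.05. DESeq2 called Cd36 in myeloid-like and macrophage-like cells, Cx3cr1 in monocyte-like cells and Lgals3, Rac2 and Socs3 in proximal tubule-like cells. The median log2 change of the list was −0.03, −0.04, 0.08, −0.07, −0.06 and −0.31 in these classes, beside medians over all genes of −0.0027 to 0.0115. Of 46 list genes tested in distal convoluted tubule-like cells 0 passed, and of 50 in the collecting duct 0 (12 and 13 at an unadjusted p under 0.05), and DESeq2 called Rac2 in the former. The exception was the loop of Henle, where 3 of 43 passed, C1qa, C1qb and C1qc, the chains of the complement opsonin C1q.

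C1qa in loop of Henle-like cells was at 0 and 2.69 raw CPM in the naive pair, 112 and 46.4 in the rejecting pair and 10.9 and 5.91 in the tolerized pair, a log2 change of −3.29 between tolerized and rejecting kidneys (edgeR FDR 0.0031). C1qb had −3.67 (FDR 0.0054) and C1qc −3.41 (FDR 0.0031). In macrophage-like cells, the usual source of C1q, C1qa was at 4959 to 8543 raw CPM. The summed level of the 12 macrophage markers in loop of Henle-like cells was 1126 and 1153 raw CPM in the naive pair, 2387 and 1814 in the rejecting pair and 1740 and 1236 in the tolerized pair, against 22364 to 44004 in macrophage-like cells, with 7 and 3 of the 12 at 0 in the naive pair. Lyz2, a lysozyme gene of macrophages, was at 1.54 and 8.08 raw CPM in the naive pair, 354 and 96.6 in the rejecting pair and 62.5 and 20.2 in the tolerized pair (loop of Henle-like cells), the same order as C1qa. The C1q calls were lost with doublets kept (log2 −2.45 for C1qa). With at most 20% mitochondrial UMIs C1qa (−1.86) and C1qb (−2.30) did not pass and C1qc was not tested, and without tolerized replicate 2 C1qa and C1qc did not pass (−2.89 and −2.90). The part of macrophage RNA in the C1q values of tubule-like cells was not tested.

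The genes whose pattern across 83 sums of a class in a kidney was most like each member were named by Pearson's r of log2(raw CPM + 1) among 13698 genes, as a description. They share libraries, depth and cell classes. For Axl these were Rab7b (r = 0.83), Abca9 (0.83) and Pid1 (0.82), and for Mertk Sash1 (0.75), Tspan4 (0.75) and Gna12 (0.74). For Gas6 they were Mgst3 (0.89), Dmtn (0.87) and Snx7 (0.86), for Pros1 Pld2 (0.81), Tmbim1 (0.78) and Pald1 (0.77), and for Stab1 Ch25h (0.85), Nos2 (0.84) and Parvb (0.80). No other member was among them. Tyro3 and Timd4 were below the mean of 1 raw CPM that this naming required.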

How the data were processed

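The authors deposited, for each of 6 kidneys, a gene by barcode matrix of raw UMI counts made by Cell Ranger (3.0.1 in the file headers of the transplanted kidneys) on the mm10 genome, not normalized and used here as deposited. Genes were matched by identifier. A cell was kept if it had 500 UMIs and 250 genes or more and no more than 50% of its UMIs were mitochondrial. As automatic doublet thresholds marked too few cells, the highest Scrublet scores were called doublets at 0.8% per 1000 barcodes (4130 cells). All 49797 kept cells, called doublets included, were clustered (scanpy 1.11.5, 2500 variable genes without the 7 genes, 40 principal components, 20 neighbours, Leiden resolution 1.5) into 44 clusters. The called doublets were then left out of the naming and the main sums, which left 45667 cells. Of the clusters, 40 were named from at least 3 markers, each seen in 10% of the cluster's cells or more. Each marker was also 2-fold or more above the average over all clusters. A class in a kidney needed 20 cells to be used.

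UMIs were summed per class and kidney and tested by edgeR 4.0.16 (TMM, filterByExpr, quasi-likelihood, Benjamini-Hochberg over all genes tested), with DESeq2 1.42.0 as an alternative. Myeloid classes used the 4 transplanted kidneys for tolerized against rejecting, and all other fits used 6. No cluster met the rule for a class between macrophage and monocyte, and stroma-like cells were too few to be fitted. The test was checked on simulated data. Paired class levels used an exact sign-flip permutation test. Intervals and limits from 0 (3 counts) cover counting error only. Whether reads came from the 3′ or the 5′ end is not given in the sources used here. The 7 genes, the 71-gene list and the markers were chosen with earlier results of these data known. Genes named from the list had to pass FDR 0.05 between tolerized and rejecting kidneys (at most 8 a class), and those of the closing section were chosen after their values were seen. Fits of single clusters were chosen after seeing the data. 1 gene of the list is not reported here.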

Additional observations from a re-analysis of the deposited data

Results flagged for a closer look

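Several genes moved in opposite directions in 2 cell classes. Every kidney of one class moved one way and every kidney of the other the opposite way, in some pairs only by a near tie, named below. These differences between classes were not tested, and the values are differences of fitted log2 changes. For Gas6 in rejecting against naive kidneys, the change in endothelium-like cells minus that in proximal tubule-like cells was −1.56, minus loop of Henle-like cells −1.35, minus distal convoluted tubule-like cells −1.45 and minus collecting duct-like cells −1.41. For Gas6 in tolerized against naive kidneys the same 4 differences were −1.87, −1.51, −1.52 and −1.75. The naive kidneys are shared by both comparisons. Over the pairs of classes 6.50% to 10.2% of genes tested in both showed such opposite movement against naive kidneys, and 2.59% to 4.36% between tolerized and rejecting ones.

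For Mertk in rejecting against naive kidneys, endothelium-like minus proximal tubule-like cells gave −0.31. This pair is a near tie too, with fitted changes of only −0.25 and 0.065 in these classes. Between tolerized and rejecting kidneys Gas6 gave 2.86 for conventional dendritic cell-like minus endothelium-like cells and 2.80 for conventional dendritic cell-like minus distal convoluted tubule-like cells. Its levels in conventional dendritic cell-like cells lay within or below those of B cell-like cells of transplanted kidneys. Pros1 gave −0.51 for macrophage-like minus endothelium-like cells, 1.04 for endothelium-like minus proximal tubule-like cells and 1.11 for endothelium-like minus collecting duct-like cells. The Pros1 differences and the first of these Gas6 differences rest on near ties in endothelium-like cells. There the closest rejecting and tolerized kidneys had the same raw CPM to the digits given above. In proximal tubule-like cells Pros1 was near the floor, with 10 and 8 UMIs in the rejecting and 14 and 14 in the tolerized kidneys. Its level there, 0.335 to 1.10 raw CPM over the 6 kidneys, lay within the 0 to 1.28 of B cell-like cells.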

How the results depend on the processing

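Among the alternative values of the 35 fitted changes given in the text, 412 kept direction and side of the threshold, 34 lost the call, 15 gained one and 14 changed sign. The cause of the exceptions was not tested. With 2 kidneys in a group, leaving 1 out assumes that the lone kidney varies like the others, and genes under the low-count filter were tested only without it.

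Between tolerized and rejecting kidneys the number of the 7 genes called stayed at 0, except for 1 in myeloid-like and 1 in collecting duct-like cells without the low-count filter, 0 to 1 in conventional dendritic cell-like cells when single kidneys were left out, and 1 there with the replicate block. Against naive kidneys, leaving out single kidneys gave 0 to 2 genes called in myeloid-like cells (main count 2 in both comparisons). In rejecting kidneys it gave 0 to 1 in endothelium-like, collecting duct-like and proximal tubule-like cells, as well as in distal convoluted tubule-like and loop of Henle-like ones. In tolerized kidneys it gave 0 to 2 in endothelium-like and 0 to 1 in proximal tubule-like cells. In rejecting kidneys DESeq2 called 0 in endothelium-like, 2 in proximal tubule-like and 0 in collecting duct-like cells. Without the low-count filter 2 were called in endothelium-like (2 in tolerized kidneys) and 3 in proximal tubule-like cells (2 in tolerized kidneys). With at most 20% mitochondrial UMIs 0 were called in endothelium-like and distal convoluted tubule-like cells, and with doublets kept 2 in collecting duct-like cells.

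Whether replicate numbers pair these kidneys is not known. The kidneys came from 2 experiments, but the labels tie no number to an experiment, litter or day, and deviations from the group means of same-numbered kidneys correlated at −0.258 to 0.0892. With the replicate number as a block 1 gene was called in conventional dendritic cell-like cells (Timd4), and against naive kidneys 0 were called in rejecting endothelium-like, proximal tubule-like and distal convoluted tubule-like cells. Crossing the numbers was not tried.

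The sign changes all concerned changes that did not pass the test. Leaving out single kidneys, the tolerized against rejecting change in macrophage-like cells ran from −0.35 to 0.13 for Mertk, −0.45 to 0.46 for Gas6 (0.0024 at clustering resolution 0.8) and −0.25 to 0.78 for Stab1. It ran from −0.42 to 0.30 for Stab1 in endothelium-like cells, and for Gas6 from −0.37 to 0.28 in proximal tubule-like and −0.51 to 0.090 in loop of Henle-like cells. Against naive kidneys Axl in myeloid-like cells ran from −0.11 to 1.13 in rejecting and −0.032 to 1.20 in tolerized kidneys, with the negative values without naive replicate 1. Without thinning, the tolerized minus rejecting share of myeloid-like cells with a UMI was 1.85 percentage points for Axl and 1.58 for Axl and Mertk together (0.12 at 1000 UMIs).

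Over all genes, calls between tolerized and rejecting kidneys moved by more than 1.5 times under several settings. Loop of Henle-like cells had 56 calls, 113 with the replicate block, 9 with doublets kept and 3 with at most 20% mitochondrial UMIs. Distal convoluted tubule-like cells had 4, and 45 by DESeq2. Collecting duct-like cells had 1, and 36 by DESeq2. Conventional dendritic cell-like cells had 0, and 108 with the block. Against naive kidneys, leaving out a naive kidney left 60 to 901 of 877 to 1620 calls in myeloid-like cells.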

Other observations

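Genes that act downstream of engulfment also differed between transplanted and naive kidneys. They were chosen for this account after their values were seen, and strain and age of the kidneys cannot be told apart from transplantation here either. In myeloid-like cells 14 of the 65 list genes tested rose and 3 fell in rejecting kidneys, and 7 rose and 1 fell in tolerized kidneys (13.5% and 7.29% of all genes called). Nr1h3, which encodes the sterol sensor LXR-alpha that engulfed cholesterol activates, was at 4.18 and 4.55 raw CPM in the naive pair, 117 and 72.3 in the rejecting pair and 66.3 and 58.5 in the tolerized pair (myeloid-like cells), a log2 change of 4.39 (SE 0.55, edgeR FDR 0.0021) and 3.84 (SE 0.58, FDR 0.0071). The naive level rests on 3 UMIs, and the pooled ratios of 21.3 and 14.5 have exact intervals of 7.26 to 103 and 4.97 to 70.5 that cover counting error only. Abca1, a cholesterol exporter that LXR controls, was at 8.36 and 9.11 in the naive pair, 33.7 and 43.3 in the rejecting pair and 31.8 and 22.7 in the tolerized pair, and it rose by 2.09 (FDR 0.0167) in rejecting kidneys. Its naive level also rests on few UMIs, and neither a counting interval nor a fit without single kidneys is given for it. Of the 14 genes of corpse digestion and lipid efflux, 6 rose in rejecting and 2 in tolerized kidneys and none fell. Cd36, a scavenger receptor that binds oxidised lipids, fell by 2.21 in rejecting kidneys (FDR 0.0059), from 100 and 219 raw CPM to 32.6 and 41.0.

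In proximal tubule-like cells 27 of 60 list genes tested rose and 5 fell in rejecting kidneys and 18 rose and 3 fell in tolerized kidneys (41.7% and 31.9% of all genes called). Havcr1, which encodes KIM-1, a phosphatidylserine receptor that injured tubule cells display, was at 0.191 and 0.458 raw CPM in the naive pair, 19.6 and 54.0 in the rejecting pair and 40 and 6.17 in the tolerized pair, a log2 change of 6.42 (edgeR FDR 0.0030) and 5.89 (FDR 0.0059), and the transplanted groups overlapped. Cd36 fell here too, from 228 and 268 raw CPM in the naive pair to 64.2 and 72.7 in the rejecting pair and 77.5 and 60.1 in the tolerized pair. Tubule-like cells also held macrophage transcripts. In proximal tubule-like cells Lyz2, a lysozyme gene of macrophages, was at 1.05 and 4.19 raw CPM in naive and 22.9 to 270 in transplanted kidneys, which moves with the C1q genes of the list (C1qa 0.431 and 1.64 against 4.88 to 83.1), and its part in the counts above was not tested.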
